A study of Homo sapiens with 6 samples.

Results

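Matrix metalloproteinases (MMPs) and their tissue inhibitors (TIMPs) were examined in 143B osteosarcoma (OS) cells with and without *CNTNAP4*. The 10 genes were taken by symbol from the deposited table of log2 signals, which lists 54308 genes. They are the collagenases *MMP1* and *MMP13*, the gelatinases *MMP2* and *MMP9*, the stromelysins *MMP3* and *MMP10*, the membrane-anchored *MMP14*, and the inhibitors *TIMP1*, *TIMP2* and *TIMP3*. They were chosen by name with the KO and VC signals of these same 6 libraries known, so their values are given as a description and without a test.

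RNA came from clonal cells of 143B, a human osteosarcoma line. The vector control (VC) cells were transfected with a control plasmid, and the knockout (KO) cells carry a *CNTNAP4* deletion made with a CRISPR/Cas9 plasmid. Both were grown in medium with serum, and the labels give 48 h of transfection for each. The study's methods differ, with a longer incubation with the plasmid and then the sorting of single transfected cells into colonies. Each group holds 3 libraries, which the study calls biological replicates from independent RNA samples. Whether these came from separate cultures is not stated, and p-values measure only the spread between these libraries. Which colonies gave which KO library is not given in the labels, so the effect of the deletion and a difference between clones cannot be told apart. For *CNTNAP4* itself the table holds 1 value, -7.18 in VC replicate 3, and empty cells elsewhere, so it cannot check the deletion. The study checked the deletion in its clones by qRT-PCR, western blot and a T7 endonuclease I assay.

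MMPs are zinc-dependent proteases that are secreted, or anchored at the cell surface, as inactive proenzymes and then cut open to become active. Collagenases cleave intact fibrillar collagen, gelatinases degrade denatured and basement membrane collagen, and stromelysins cleave proteoglycans and activate other proenzymes. TIMPs bind active MMPs and block them, and TIMP2 also bridges MMP14 and the MMP2 proenzyme at the cell surface. Bone-forming cells and tumors of bone use these enzymes to remodel a matrix rich in type I collagen.

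All 7 MMP genes had higher log2 signals in KO, with every KO library above every VC library. The TIMP genes did not share that pattern, since TIMP2 was lower in every KO library and the values of TIMP1 and TIMP3 overlapped between the groups. As background, 17698 genes had no empty cell, and every KO value lay above every VC value in 22.6% of them and below it in 36.7%. The KO mean was at least 2-fold above the VC mean for 6 of the 10 genes, and 4.55% of the 17698 genes had separate groups and such a difference. Nothing is read from these shares, because the 10 genes were chosen with their values in view. The plot of log2 signals by library shows the separation of the MMP panels and the overlap in 2 of the TIMP panels.

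**Figure D1:**
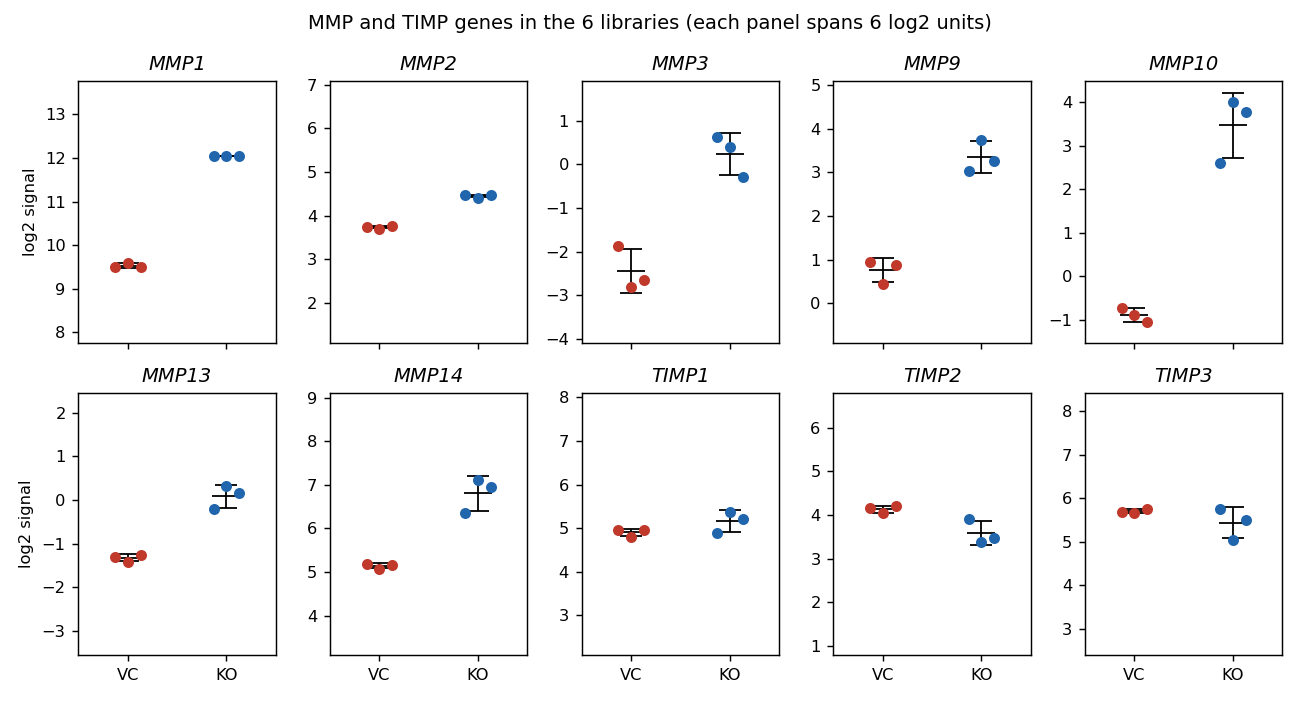
Log2 signal of each gene in the 3 VC (red) and 3 KO (blue) libraries, with the mean and SD as bars. Every panel spans the same number of log2 units. KO points lie above all VC points for the 7 MMP genes, below them for TIMP2, and among them for TIMP1 and TIMP3.

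*MMP1*, the interstitial collagenase, had log2 signals of 9.49, 9.60 and 9.50 in VC replicates 1, 2 and 3, and 12.04 in each of the 3 KO replicates. The KO value is the highest signal of the table, and *MMP1* held rank 1 among all genes in every KO library against ranks 68, 64 and 67 in VC. In the VC libraries rank 1 belonged to *RPS2*, a ribosomal protein gene, with the same signal of 12.04. The signals had been quantile-normalized, so that a given rank carries nearly the same value in each library, and no gene can exceed the value of the first rank. The means of 9.53 ± 0.059 (SD, n = 3) in VC and 12.04 in KO give a log2 difference of 2.51, or 5.69-fold, in which the KO value is capped by the normalization and its SD of 0 is not a measure of replicate spread. The plot of ranks shows *MMP1* moving to the top of each KO library.

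**Figure D2:**
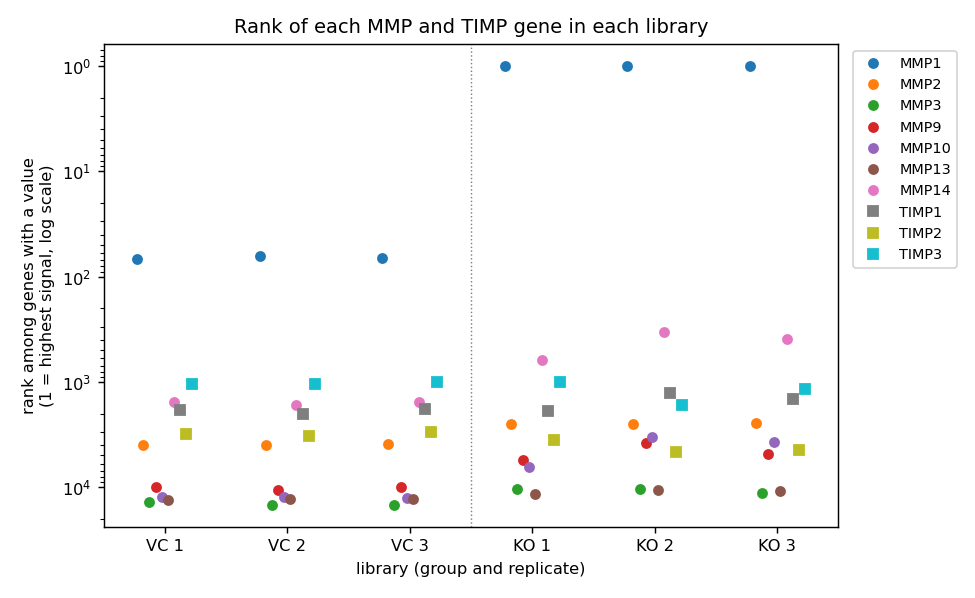
Rank of each gene among the genes with a value in each library, on an inverted log scale with 1 as the highest signal. Circles are MMP genes and squares are TIMP genes. *MMP1* stands at ranks 64 to 68 in VC and at rank 1 in the 3 KO libraries, and MMP14 at ranks 1546 to 1648 in VC and 338 to 625 in KO.

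*MMP13*, collagenase 3, is a marker of late osteoblasts and hypertrophic cartilage. Its log2 signals were -1.31, -1.42 and -1.26 in VC and -0.21, 0.31 and 0.15 in KO. The lowest KO value stood 1.05 above the highest VC value, and the log2 difference of the means was 1.42 (2.67-fold). *MMP13* has a low signal, and with 1 added to the linear signal before the logarithm its difference was 0.56.

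The stromelysin *MMP10* had the largest difference among the 10 genes. Its log2 signals were -0.72, -0.89 and -1.04 in VC and 2.61, 4.0 and 3.78 in KO, so the groups were separated by 3.33. The means were -0.88 ± 0.16 (SD, n = 3) and 3.46 ± 0.74 (SD, n = 3), a log2 difference of 4.34 or 20.3-fold. An offset of 1 on the linear signal gave *MMP10* a log2 difference of 2.97. Of the 19306 genes tested in these libraries, 7 had a larger difference. *MMP10* went from ranks 12409 to 12715 in VC to ranks 3304 to 6464 in KO, with KO replicate 1 the lowest of the 3.

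*MMP3*, or stromelysin 1, the closest relative of *MMP10*, had log2 signals of -1.87, -2.81 and -2.65 in VC and 0.63, 0.39 and -0.29 in KO. The log2 difference was 2.69 (6.44-fold), and the groups were separated by 1.58, more than the range of 0.94 within VC or 0.92 within KO. In GENCODE release 29, 3.45% of the 50-base words of the longest coding transcript of *MMP10* and 3% of those of *MMP3* occur in the other gene, so most of each transcript can be told from its relative. With 1 added to the linear signal the difference of *MMP3* was 0.887. On the deposited scale 84 of the genes tested had a larger difference than *MMP3*, although its KO signals ranked no higher than 10369 in any library.

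The gelatinase *MMP9*, which degrades type IV collagen, had log2 signals of 0.94, 0.44 and 0.88 in VC and 3.03, 3.75 and 3.27 in KO. Its means were 0.76 ± 0.27 (SD, n = 3) and 3.35 ± 0.37 (SD, n = 3), a log2 difference of 2.60 or 6.04-fold. The highest VC and the lowest KO library lay 2.09 apart, against ranges of 0.50 within VC and 0.73 within KO, and 94 of the genes tested had a larger difference. *MMP9* is also a product of macrophages and osteoclasts. Of 8 leukocyte and macrophage markers, 5 could be tested and 2 were higher in KO by limma's test, *CD68* (log2 fold change 1.66, adjusted p = 0.00963) and *CSF1R* (2.16, adjusted p = 0.00571). The other 3, *PTPRC* (-1.18, adjusted p = 0.236), *LYZ* (-1.08, adjusted p = 0.195) and *ITGAM* (-1.04, adjusted p = 0.138), did not pass, and the median of the 5 was -1.04 against -0.13 for all genes tested, of which 13.1% were higher. *CD14* had a value in KO replicate 1 alone among the KO libraries, -6.56, against -4.58 to -3.80 in VC. The summed linear signal of these 8 markers was 21.8 to 23 in VC and 52.5 to 88.2 in KO, nearly all of it from *CD68*. The pan-leukocyte marker *PTPRC* ranged from -7.12 to -4.35 over the 6 libraries. *CD163* (-7.22) and *TYROBP* (-4.01) had a value in VC replicate 1 alone and were empty in all other VC and KO libraries. The RNA was extracted from clonal cells of an osteosarcoma line, and the sequencing methods name no other cells as its source. These markers are therefore given as genes read in that line and not as a count of macrophages or osteoclasts. A part of such cells in the value of *MMP9* was not tested. In bulk RNA a change in the number of cells of a type and a change in RNA per cell cannot be told apart.

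*MMP2*, the other gelatinase, had the smallest difference of the MMP genes and the tightest replicates. Its log2 signals were 3.74, 3.70 and 3.75 in VC and 4.46, 4.41 and 4.47 in KO. The log2 difference was 0.72 (1.65-fold), and the gap of 0.67 between the groups compares with a range of 0.05 in each. Of the words of the *MMP2* transcript, 3.44% occur in another GENCODE gene, *AC007336.3*.

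*MMP14*, the membrane-type enzyme that activates the MMP2 proenzyme and cleaves collagen at the cell surface, had log2 signals of 5.18, 5.08 and 5.17 in VC. In KO they were 6.35, 7.12 and 6.94. The means of 5.14 ± 0.057 (SD, n = 3) and 6.81 ± 0.40 (SD, n = 3) give a log2 difference of 1.66, or 3.17-fold. KO replicate 1 was the lowest KO library and stood 1.17 above the highest VC library. Of the genes tested, 338 had a larger difference.

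*TIMP2* was the one inhibitor of the 3 with separate groups. Its log2 signals were 4.16, 4.04 and 4.20 in VC and 3.91, 3.38 and 3.48 in KO, a difference of -0.55 in the means (0.685 of the VC level). The groups were separated by 0.13, less than the range of 0.15 within VC or 0.53 within KO. The *TIMP2* gene overlaps *CEP295NL*, which shares 4.19% of the words of the *TIMP2* transcript, and *CEP295NL* had log2 signals between -5.37 and -4.87 where it had a value.

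*TIMP1*, a broad inhibitor of secreted MMPs, had log2 signals of 4.95, 4.81 and 4.96 in VC and 4.90, 5.38 and 5.22 in KO. KO replicate 1 lay between the VC libraries and the others lay above them, so the mean difference of 0.26 came with overlapping groups. *TIMP3*, which binds to the matrix and also inhibits ADAM proteases, had 5.69, 5.67 and 5.75 in VC and 5.76, 5.05 and 5.50 in KO. KO replicate 1 was here the highest of all 6 libraries, and the mean difference was -0.27. Without KO replicate 2 the difference of *TIMP1* was 0.152 and that of *TIMP3* was -0.0733.

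RefSeq promoter windows could be matched for 4 of the 10 genes, *MMP10*, *MMP14*, *TIMP1* and *TIMP3*. The 150 bases before the annotated start are shown for the stromelysin with the largest difference, for the membrane-type enzyme and for an inhibitor whose groups overlapped, 5′ to 3′ on the gene's strand in build GRCh38.p14. They lie at chr11:102780629-102780778 on the minus strand, chr14:22836435-22836584 on the plus strand and chr22:32801555-32801704 on the plus strand. Capitals mark matches to TGANTCA, a relaxed form of the site bound by AP-1 transcription factors, and to TATAAA, both searched on both strands and without overlap between them.
MMP10: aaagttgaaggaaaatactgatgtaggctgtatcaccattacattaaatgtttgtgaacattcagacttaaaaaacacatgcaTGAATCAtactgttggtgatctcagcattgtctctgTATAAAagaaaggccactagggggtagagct
MMP14: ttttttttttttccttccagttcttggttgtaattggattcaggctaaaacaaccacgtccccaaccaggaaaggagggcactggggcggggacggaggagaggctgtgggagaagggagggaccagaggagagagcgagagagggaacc
TIMP3: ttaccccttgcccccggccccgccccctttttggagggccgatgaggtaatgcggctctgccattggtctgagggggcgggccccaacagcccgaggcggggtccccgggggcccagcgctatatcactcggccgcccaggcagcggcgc
The *MMP10* window holds TGAATCA with its first base 67 bases before the start and TATAAA with its first base 31 bases before it. The windows of *MMP14*, *TIMP1* and *TIMP3* hold neither motif. Over 35116 promoter windows of this length, 4.17% hold TGANTCA and 6.71% hold TATAAA. Guanine and cytosine make up 36.7% of the *MMP10* window, 54% of the *MMP14* window, 63.3% of the *TIMP1* window and 72.7% of the *TIMP3* window, against a median of 60% over all windows. A match to these letters is a description and does not show that a factor binds there.

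All genes tested had a median log2 fold change of -0.13, which was -0.023 when 1 was added to the linear signal. Relative to the median of all genes, the differences of *TIMP1*, *TIMP2* and *TIMP3* were 0.38, -0.42 and -0.14, and those of the MMP genes ran from 0.85 for *MMP2* to 4.47 for *MMP10*. The sign of each of the 10 differences was the same with median-centred libraries, with 1 added to the linear signal and with any single library left out.

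For most of these genes the KO libraries were spread more widely than the VC libraries. The SD was larger in KO for 8 of the 10 genes, the exceptions being *MMP1*, which is capped, and *MMP3*. Of the 9 genes with KO values that differ, KO replicate 1 was the lowest for 5 (*MMP9*, *MMP10*, *MMP13*, *MMP14* and *TIMP1*) and the highest for 3 (*MMP3*, *TIMP2* and *TIMP3*). The labels name no batch or date that sets KO replicate 1 apart.

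Because the unit under the log2 scale is not given in the sources used here, levels of different genes were not set against each other. A difference between 2 genes within a library can still be followed from VC to KO, since a fixed factor such as gene length cancels. Taking the VC mean as 0, the log2 difference of *MMP14* and *TIMP2* was 1.44, 2.74 and 2.46 in KO replicates 1, 2 and 3, and between -0.04 and 0.02 in VC. For *MMP2* and *TIMP2* it was 0.96, 1.44 and 1.40 in KO, and between -0.04 and 0.06 in VC. For *MMP9* and *TIMP1*, whose proteins bind each other as proenzyme and inhibitor, it was 2.28, 2.53 and 2.20 in KO and between -0.21 and 0.14 in VC. In these pairs the KO libraries were shifted to the protease. That follows from the differences of the chosen genes and is not a separate result. The inhibitor gene *TIMP4*, which was not paired, rose by 2.78 on the log2 scale, more than *MMP2*, *MMP9* or *MMP14*.

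The genes *MMP10*, *MMP1*, *MMP3* and *MMP13* lie in the MMP gene cluster of chromosome 11, which RefSeq and the deposited table give in the same order. The other 6 genes lie on chromosomes 14 (*MMP14*), 16 (*MMP2*), 17 (*TIMP2*), 20 (*MMP9*), 22 (*TIMP3*) and X (*TIMP1*). Within the cluster of 9 MMP genes, those 4 had every KO value above every VC value and were not tested. The groups overlapped for *MMP7* (matrilysin, log2 fold change -0.44, adjusted p = 0.398), *MMP12* (macrophage elastase, -0.13, adjusted p = 0.799) and *MMP20* (enamelysin, 0.45, adjusted p = 0.438), which did not pass limma's test. *MMP8*, the neutrophil collagenase next to *MMP10*, had no value in VC replicate 1, log2 signals of -7.40 and -6.54 in the other VC libraries, and -4.96, -4.53 and -5.94 in KO. Its KO values also lay above its VC values, at low signals. The log2 fold change of *MMP8* was 1.83, larger than the difference of 1.42 for *MMP13*, and did not pass limma's test (adjusted p = 0.06). *MMP27* had no value in any library. The cluster was therefore mixed, with *MMP12* low in both groups between *MMP3* and *MMP13*.

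*WTAPP1*, a transcribed pseudogene that overlaps *MMP1* and *MMP3* in RefSeq, had log2 signals of -4.36, -4.51 and -4.46 in VC and -1.78, -2.26 and -2.11 in KO. Its fold change was 2.39 on the log2 scale in the limma fit, with a standard error of 0.14 (adjusted p = 0.00478). The labels name a stranded library kit, but whether the counting used strand is not given, so reads of *WTAPP1* and of its neighbours may not be fully separate. Coding genes beside the cluster, 8 in all, were looked up after the values had been seen. They were taken by order and not by distance, from *CFAP300* to *TMEM123* on the *MMP7* side and from *DCUN1D5* to *PDGFD* on the *MMP13* side. More of them lie on the *MMP7* side, as do all those that passed. Of the 8, *BIRC3* had a fold change of 2.81 (log2, adjusted p = 0.00571) and *BIRC2* one of 0.36 (adjusted p = 0.0297), both higher in KO. Both encode inhibitors of apoptosis, and *TMEM123* beside them fell by 0.47 (adjusted p = 0.019). *CFAP300*, *YAP1*, *DCUN1D5*, *DYNC2H1* and *PDGFD* did not pass the test. Over all genes tested, 32.9% passed in either direction, so nothing is read from the number of neighbours that passed. The plot of the cluster gives these differences in chromosomal order.

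**Figure D3:**
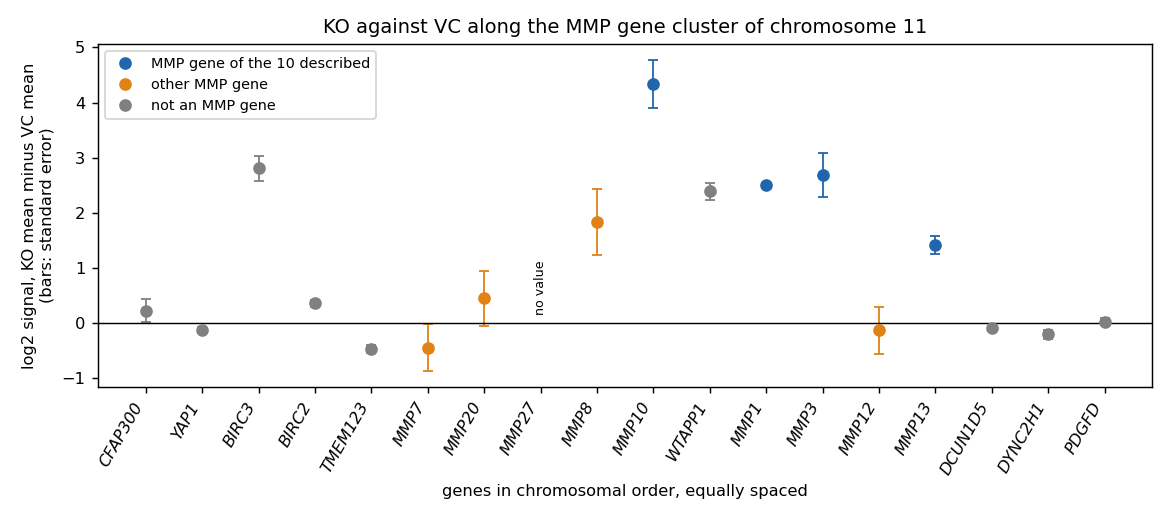
Difference of the KO and VC means in log2 signal, with its standard error, for the MMP gene cluster of chromosome 11 and the coding genes on either side, in order and equally spaced. Blue points are MMP genes of the 10 described, orange points are other MMP genes and grey points are other genes. The 4 blue points lie between 1.42 and 4.34. Of the orange points, *MMP8* lies at 1.83 and *MMP20* at 0.45, and *MMP7* and *MMP12* lie near or under 0.

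The genes with the profiles most like those of *MMP10*, *MMP3* and *MMP9* were found by the Euclidean distance between log2 signals centred on the gene mean, over the 6 libraries and 17697 other genes. Nearest to *MMP10* were *C2CD4A* (distance 0.387), *OSCAR* (0.44) and *GDF15* (0.589), with log2 differences of 4.46, 4.22 and 4.29. Nearest to *MMP3* were the cytokine genes *CSF3* (0.641) and *CCL2* (0.801) and the pantetheinase gene *VNN1* (0.812). All of these had their lowest KO value in KO replicate 3, as *MMP3* did. KO replicate 1 was the highest KO library for *MMP3* and *VNN1*, and KO replicate 2 was the highest for *CSF3* and *CCL2*. Nearest to *MMP9* were *BBC3* (0.267), *ROBO4* (0.298) and *CALCB* (0.298), with log2 differences of 2.49 to 2.59. These distances rest on 6 libraries and mostly on the step between the groups.

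To place the 10 genes among their relatives, 93 further genes of proteases, activators and inhibitors were compared in the limma fit across all genes, with Benjamini-Hochberg adjustment over the 19306 genes tested. In that fit 13.1% of all genes were higher in KO and 19.8% were lower, 32.9% in all. Of the 83 related genes that could be tested, 19 were higher (22.9%) and 14 were lower (16.9%), with a median log2 fold change of 0.04 against -0.13 for all genes. The counts depended on single libraries, as did those over all genes, which ran from 654 to 2940 higher and 569 to 5729 lower. Among the related genes, the number higher was 10, 13 and 8 when VC replicate 1, 2 or 3 was left out. It was 18, 17 and 13 when KO replicate 1, 2 or 3 was. The number lower was 3, 7 and 3 when VC replicate 1, 2 or 3 was left out, and 23, 9 and 4 when KO replicate 1, 2 or 3 was.

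Of the other MMP genes and *TIMP4*, 17 in all, 15 were tested, 2 rose, 4 fell and 9 did not pass. *TIMP4*, the fourth inhibitor of the family, had log2 signals of -0.78, -1.40 and -0.57 in VC and 1.10, 2.42 and 2.06 in KO. It rose by 2.78 on the log2 scale (standard error 0.41, adjusted p = 0.0125), with an SD of 0.43 in VC and 0.68 in KO. *TIMP4* was the one TIMP gene of 4 with every KO value above every VC value. *MMP28*, or epilysin, rose by 2.10 (adjusted p = 0.00985), at signals that stayed under -5. An offset of 1 on the linear signal left a fold change of 0.03 (adjusted p = 0.321).

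The membrane-type genes *MMP16*, *MMP17* and *MMP24* were lower in KO, unlike *MMP14*. *MMP17* had 1.86, 1.55 and 1.91 in VC and 1.41, 0.77 and 1.06 in KO (log2 fold change -0.69, adjusted p = 0.0475), *MMP16* fell by 0.43 (adjusted p = 0.0492) and *MMP24* by 0.98 (adjusted p = 0.0243). The other membrane-anchored genes, *MMP15* (-0.61, adjusted p = 0.131) and *MMP25* (-0.35, adjusted p = 0.204), did not pass. *MMP21* fell by 1.92 (adjusted p = 0.0442), at low signals between -6.80 and -4.12 and with no value in KO replicate 2. These 4 falls were lost in most fits that left out 1 library. The adjusted p reached 0.13 for *MMP16* without KO replicate 3, and 0.13, 0.115 and 0.0786 for *MMP17*, *MMP21* and *MMP24* without VC replicate 3.

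Among 15 ADAM genes, which encode membrane proteases that shed cell-surface proteins, 13 were tested, 4 rose and 3 fell. *ADAM19* (log2 fold change 0.80, adjusted p = 0.015), *ADAM9* (0.58, adjusted p = 0.011) and the weakly detected *ADAM28* (1.84, adjusted p = 0.042) were the largest rises. With 1 added to the linear signal the fold change of *ADAM28* was 0.02 (adjusted p = 0.527). *ADAM12* fell by 1.61 (adjusted p = 0.0177), *ADAM23* by 0.61 (adjusted p = 0.027) and *ADAM22* by 0.55 (adjusted p = 0.0324), of which the last 2 encode adhesion proteins without protease activity. Without VC replicate 3 the adjusted p of *ADAM19*, *ADAM9*, *ADAM12*, *ADAM23* and *ADAM22* was 0.0578, 0.0517, 0.064, 0.0855 and 0.0947. Of 19 ADAMTS genes, whose proteins cleave proteoglycans and procollagens, 18 were tested and 1 passed, *ADAMTS16*, which rose by 0.90 (adjusted p = 0.0143, and 0.0575 without VC replicate 3). The median log2 fold change was 0.1 for the ADAM genes, against -0.13 for all genes.

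Activators and cell-surface regulators of MMPs gave 5 rises and 1 fall among 13 tested genes. *PLAU*, the urokinase that starts the plasmin cascade, had 6.70, 6.70 and 6.71 in VC and 7.87, 7.97 and 7.46 in KO (log2 fold change 1.06, adjusted p = 0.0114). Its receptor *PLAUR* rose by 1.08 (adjusted p = 0.0115) and the integrin subunit *ITGB3* by 1.38 (adjusted p = 0.0124). *PCSK6*, a proprotein convertase, fell by 0.55 (adjusted p = 0.0202). With VC replicate 3 left out, *ITGB3* had an adjusted p of 0.0509 and *PCSK6* one of 0.0747.

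Other inhibitors moved in both directions, with 3 rises and 3 falls among 10 tested genes. *SERPINB2*, a serpin that inhibits plasminogen activators, rose by 3.39 (adjusted p = 0.0101). Its log2 signals were low, -4.14, -5.29 and -4.46 in VC and -1.02, -0.76 and -1.93 in KO. An offset of 1 on the linear signal left a fold change of 0.47 (adjusted p = 0.0148). *TFPI2*, a matrix-bound inhibitor of serine proteases, rose by 1.61 (adjusted p = 0.00789). *RECK*, a membrane-anchored inhibitor of MMPs, had 1.22, 1.33 and 1.24 in VC and 0.87, 0.76 and 0.56 in KO (log2 fold change -0.53, adjusted p = 0.02, and 0.0694 without VC replicate 3). *A2M*, a plasma protein that traps proteases of many classes, fell by 2.37 (adjusted p = 0.0106), and *SPOCK1* by 0.71 (adjusted p = 0.00857). For *A2M* the same offset gave -0.73 (adjusted p = 0.00281). The plot of related genes shows genes that passed in both directions in every list but that of the ADAMTS genes, where the 1 that passed was higher.

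**Figure D4:**
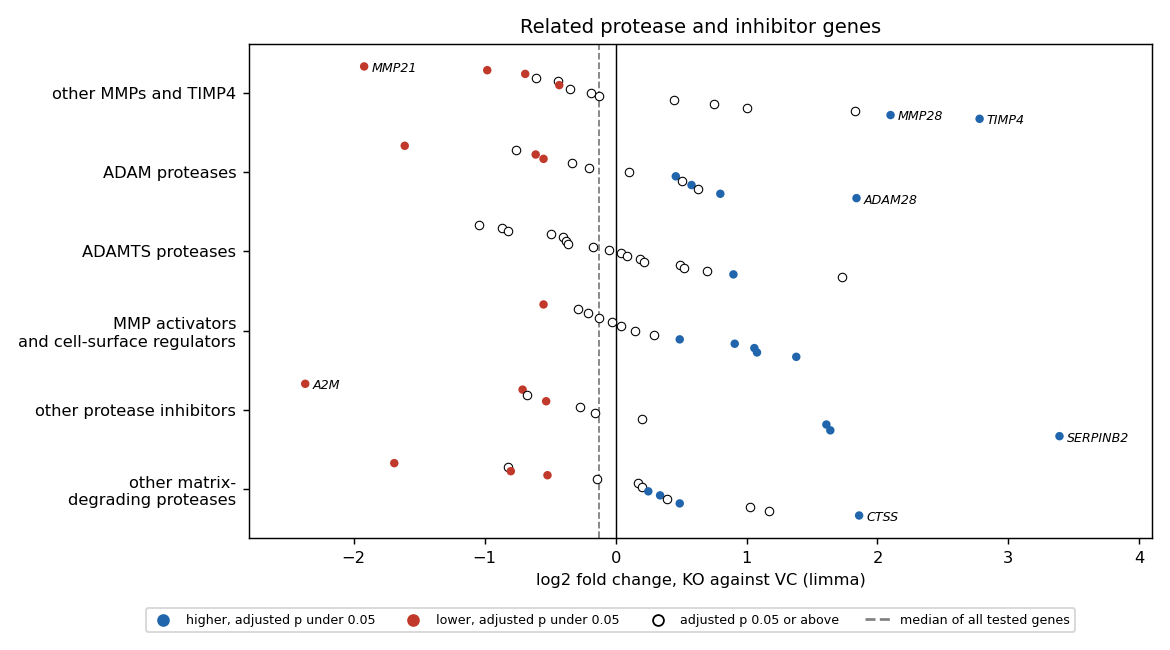
Log2 fold change (KO against VC, limma) of the related genes tested, by list. Filled points have an adjusted p under 0.05, blue for higher and red for lower in KO, and the dashed line is the median of all tested genes at -0.13. *SERPINB2* and *TIMP4* lie farthest to the right and *A2M* farthest to the left.

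Of the 29 related genes taken by the naming rule, 11 passed in each of the 6 fits that left out 1 library. Among them were *TIMP4*, *MMP28*, *PLAU*, *PLAUR*, *SERPINB2*, *TFPI2*, *A2M*, *SPOCK1*, *HTRA1* and *CTSS*. Without VC replicate 3, 17 of the 28 that could be tested did not pass, and without VC replicate 1, 15 of 28. Without KO replicate 1, 2 of 28 did not pass.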

How the data were processed

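RNA from 3 VC and 3 *CNTNAP4* KO samples of 143B cells was sequenced by the authors on an Illumina NextSeq instrument. The submitters' processing notes name CASAVA, STAR, Partek and build GRCh38.p13, and the methods also name CLC Genomics Server and Workbench. The deposited values are log2 signals for 54308 genes, quantile-normalized between libraries by the authors. The linear unit and the annotation are not given in the sources used here. Genes with a value numbered 20333 to 21041 per library, every library ran from -10.87 to 12.04, and empty cells mark genes without a value. The depth is unknown, so no counting error could be given. The replicates were independent RNA samples per the methods.

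Genes were compared with limma 3.58.1 in R 4.3.3 where both groups had 2 values or more, which 19306 did (empirical Bayes, two-sided, Benjamini-Hochberg adjustment, threshold 0.05), and the code was tested on simulated data. With 3 against 3, an exact permutation test cannot go under p = 0.1. The members and the lists of related and marker genes were chosen with earlier results of these data known. The text names the 10 members, every other MMP or TIMP gene that passed, up to 3 genes in each direction per further list with the largest change and separate groups, and 3 nearest profiles for each of 3 members. A gene that the rule takes is counted but not reported here. Marker and neighbouring genes were named outside this rule, after their values were seen. The alternatives were a restriction to genes with 6 values or to the upper 50% of mean signals, libraries centred on their median, an offset of 1 on the linear signal, moderation with a trend or none, a replicate block, each library left out and a 2-fold threshold.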

Additional observations from a re-analysis of the deposited data

How the results depend on the processing

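With a replicate block, 738 genes were higher and 1192 lower in KO over all genes, against 2526 and 3828, and 9 and 4 of the related genes, against 19 and 14. The replicate numbers did not pair the samples, since deviations from the group means correlated at 0.0226, 0.00509 and -0.00736 for replicates 1, 2 and 3 over 17698 genes and not every library matched its own number best. Without variance moderation 2442 genes were lower over all genes and 8 among the related genes. A threshold of 2-fold gave 792 higher and 1048 lower over all genes and 10 and 4 among the related genes. In the upper 50% of mean signal 7 related genes were lower. With single libraries left out, the counts ran from 654 to 2940 higher and 569 to 5729 lower over all genes, and from 8 to 18 higher and 3 to 23 lower among the related genes. The number of MMP and TIMP genes with separate, higher KO values stayed between 5 and 8 under every alternative run for it. It was 5 of the 8 genes left in the upper 50% of mean signal and 8 without KO replicate 1, where *TIMP1* joined. No difference of the 10 genes and no named related gene changed sign under any alternative run. With 1 added to the linear signal the differences of *MMP3*, *MMP13*, *MMP9* and *MMP10* were 0.887, 0.564, 2.06 and 2.97, against 2.69, 1.42, 2.60 and 4.34. The depth is unknown, so what it limits could not be computed.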

Other observations

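Other matrix-degrading proteases also changed in both directions, with 4 rises and 3 falls among 14 tested genes. *CTSS*, a lysosomal cysteine protease of antigen-presenting cells, had log2 signals of -1.99, -1.70 and -1.51 in VC and 0.44, 0.34 and -0.39 in KO (limma, log2 fold change 1.86, adjusted p = 0.0118). *CTSB*, a broadly expressed cathepsin, rose by 0.49 (adjusted p = 0.0217) and *HPSE*, which cuts heparan sulfate, by 0.34 (adjusted p = 0.0386). *CTSK*, the collagen-degrading cathepsin of osteoclasts, fell by 1.69, from -1.12, -1.50 and -1.58 in VC to -2.83, -3.99 and -2.45 in KO (adjusted p = 0.0352, and 0.101 without VC replicate 1). *HTRA1*, a secreted serine protease, fell by 0.80 (adjusted p = 0.00847), and *TLL2*, a procollagen-processing protease, by 0.52 (adjusted p = 0.0201). With 1 library left out at a time, *HPSE* passed in 1 of 6 fits (adjusted p up to 0.112), *CTSB* in 2 (up to 0.0727) and *TLL2* in 2 (up to 0.0641). *TLL2* also did not pass with 1 added to the linear signal (log2 fold change -0.04, adjusted p = 0.142) or with trend and robust moderation (adjusted p = 0.171).

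Of 10 mesenchymal and osteoblast-lineage markers, 8 were tested, in a fit where 13.1% of all genes were higher and 19.8% lower. *SPP1* (osteopontin, log2 fold change 1.55, adjusted p = 0.00963), *ALPL* (0.58, adjusted p = 0.0202), *SPARC* (0.37, adjusted p = 0.0213) and *COL1A1* (0.33, adjusted p = 0.0309) rose. *COL1A2* fell by 0.81 (adjusted p = 0.0161) at low signals, between -5.72 and -4.59 over the 6 libraries. *VIM* (0.38, adjusted p = 0.0667), *RUNX2* (0.21, adjusted p = 0.177) and *SP7* (-0.05, adjusted p = 0.957) did not pass. Of 2 markers of mature osteoblasts, *IBSP* had no value in any VC or KO library. *BGLAP* had log2 signals of -2.84 and -2.91 in KO replicates 1 and 2 and no value in KO replicate 3 or in VC. The depth is unknown, so an empty cell is not read as absence of the transcript. Of the 5 osteoclast markers 2 were tested and *CTSK* alone passed. None of the 5 endothelial markers had an adjusted p under 0.05 in the limma fit, in which 9241 genes had an unadjusted p under 0.05. Of the 4 epithelial markers tested, *KRT8* rose by 0.59 (adjusted p = 0.0135) and *EPCAM* fell by 0.67 (adjusted p = 0.0157).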
